A study of Mus musculus with 4 samples.

Results

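The genes described here encode the enzymes and carriers that bring pyruvate, glutamate and fatty acids into the mitochondrion and oxidise them in the tricarboxylic acid (TCA) cycle. They were 39 genes chosen by pathway with earlier results of these data known, and all 39 were found by symbol among the 52550 Ensembl genes of the expression table. RNA-seq was done on mouse bone marrow-derived macrophages of 2 genotypes, labelled OGT knockout and wild type (WT), each with 1 library at 24 h and 1 at 0 h of the IL-4 time course. OGT is the enzyme that adds O-linked N-acetylglucosamine to proteins. All 4 cultures were grown from marrow for 7 days with 20 ng/mL M-CSF in RPMI with 2 mM glutamine, 10 mM glucose and 10% serum, and IL-4 was used at 20 ng/mL. IL-4 is tagged on all 4 libraries, and the time label was read to mean that those at 0 h had not yet met it. The sources used here do not give the strain, age or sex of the mice, the Ogt allele or any Cre driver. No 24 h culture without IL-4 is labelled, so IL-4 and time in culture cannot be told apart.

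Pyruvate enters mitochondria through a carrier and is turned into acetyl-CoA, which citrate synthase joins to oxaloacetate at the start of the cycle. Glutamate enters as 2-oxoglutarate, and long-chain fatty acids enter on carnitine before the β-oxidation spiral cuts them into acetyl-CoA. Macrophages exposed to IL-4 are known for high mitochondrial respiration, and fatty acid and glutamine oxidation have both been linked to that state in mouse cells.

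Every value is in FPKM, fragments per kilobase of transcript scaled to sequencing depth, and a difference is the log2 ratio of FPKM + 1. This scale understates the change of low genes. With 1 library per group there are no replicates and no test, so each difference describes these libraries. A gene counted as higher or lower was past 1.5-fold on that scale, in a comparison where it reached 1 FPKM in at least 1 library. All 39 members were above 1 FPKM in every library, and 32 were above 5 FPKM in every library. The size of the smallest step in single-exon genes gave the depth: 1 FPKM over 1 kilobase stood for an estimated 20.2 fragments in the knockout at 24 h, 20.0 in the knockout at 0 h, 21.2 in WT at 24 h and 21.9 in WT at 0 h. At these depths the least covered member, Suclg2 in the knockout at 24 h, rests on about 203 fragments if all its annotated exons count. Ogt itself stood at 14.5 FPKM in the knockout and 29.8 FPKM in WT at 24 h, and at 14.2 FPKM in the knockout and 27.4 FPKM in WT at 0 h, so that 48.5% of the WT level remained in the knockout at 24 h and 51.8% at 0 h. The deleted part of the gene is not named, so whether these reads come from outside it was not tested. The macrophage markers were all above 1 FPKM in all libraries, including Csf1r, Adgre1 and Cd68, while no T cell or erythroid marker reached 1 FPKM in any.

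A pair of member genes are neighbours that face away from each other, so their promoters could be set beside their values. Hadha and Hadhb encode the α and β subunits of the mitochondrial trifunctional protein, and their RefSeq start sites lie 273 bases apart on chromosome 5. In GENCODE the facing ends of the genes lie closer, at 30155162 for Hadha and 30155248 for Hadhb. The 300-base promoter windows (250 bases before and 50 after the start, RefSeq, GRCm38.p6) share 228 bases, which are in capitals and read in opposite directions. They are shown because both genes were higher after IL-4 in both genotypes.
Hadha (chr5:30154931-30155230, - strand): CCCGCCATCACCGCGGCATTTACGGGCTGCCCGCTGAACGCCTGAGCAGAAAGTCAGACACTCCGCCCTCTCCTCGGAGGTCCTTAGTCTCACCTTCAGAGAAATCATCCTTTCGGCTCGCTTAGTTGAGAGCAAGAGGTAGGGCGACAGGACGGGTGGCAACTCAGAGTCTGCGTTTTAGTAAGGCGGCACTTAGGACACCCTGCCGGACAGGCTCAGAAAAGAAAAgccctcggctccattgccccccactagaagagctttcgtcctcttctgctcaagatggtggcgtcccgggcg
Hadhb (chr5:30155003-30155302, + strand): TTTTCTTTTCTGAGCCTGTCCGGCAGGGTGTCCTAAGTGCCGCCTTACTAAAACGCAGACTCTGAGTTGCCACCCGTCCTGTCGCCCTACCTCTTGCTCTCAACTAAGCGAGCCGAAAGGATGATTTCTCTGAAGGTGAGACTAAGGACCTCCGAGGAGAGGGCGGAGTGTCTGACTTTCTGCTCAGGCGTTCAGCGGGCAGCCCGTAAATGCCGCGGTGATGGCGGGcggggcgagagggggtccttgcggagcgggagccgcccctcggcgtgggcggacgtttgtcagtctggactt

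Promoters of 37 of the 39 members were found in the RefSeq set, and 6 letter patterns were sought in them on both strands. The patterns were chosen with the data in view, and the last of them after the Mdh2 promoter had been read. The nuclear receptor half-site AAGGTCA was in the promoters of 3 of 37 members (Acadm, Got1 and Ogdh), or 8.11%, against 5.38% of all 27025 genes with a promoter. The longer estrogen-related receptor element TCAAGGTCA, which contains the half-site, was in 0 of 37 members and 0.466% of genes. The direct repeat of AGGTCA with 1 base between copies, a form bound by PPAR factors, was in 0 of 37 members and 0.0481% of genes. The core of the NRF1 palindrome, CGCATGCG, was in 3 members (Acadm, Etfdh and Ogdh), or 8.11%, against 2.07% of genes. A gene counted as matched if any of its promoter windows held the pattern. Ogdh, counted for both the half-site and this core, has 6 windows, where all 27025 genes have 32851 together. TTC and GAA spaced by 4 bases, a form bound by STAT6, was in Fh1 and Idh3b (5.41% of members against 8.01% of genes). CTCGCGAG, the core of a palindrome bound by BANP, was in 1 member, Mdh2 (2.70% against 1.04%), and stands there 3 times. The promoters below are those of Mdh2 and Aco1, which were past 2-fold higher after IL-4, and of Acadm and Etfdh, which hold matches. Capitals mark matches to any of the 6 patterns, and Aco1 had none.
Mdh2 (chr5:135778399-135778698, + strand): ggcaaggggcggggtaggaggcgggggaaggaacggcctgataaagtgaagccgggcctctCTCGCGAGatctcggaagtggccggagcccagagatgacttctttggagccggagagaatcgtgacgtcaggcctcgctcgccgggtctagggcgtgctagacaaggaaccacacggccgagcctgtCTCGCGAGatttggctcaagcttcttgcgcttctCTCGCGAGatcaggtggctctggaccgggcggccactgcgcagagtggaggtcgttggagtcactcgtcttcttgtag
Aco1 (chr4:40143015-40143314, + strand): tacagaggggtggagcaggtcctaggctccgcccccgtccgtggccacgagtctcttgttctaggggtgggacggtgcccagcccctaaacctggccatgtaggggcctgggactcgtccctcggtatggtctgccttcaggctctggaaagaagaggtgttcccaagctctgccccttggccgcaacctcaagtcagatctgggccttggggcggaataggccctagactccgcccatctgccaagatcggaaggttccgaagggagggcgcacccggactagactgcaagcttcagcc
Acadm (chr3:153944594-153944893, - strand): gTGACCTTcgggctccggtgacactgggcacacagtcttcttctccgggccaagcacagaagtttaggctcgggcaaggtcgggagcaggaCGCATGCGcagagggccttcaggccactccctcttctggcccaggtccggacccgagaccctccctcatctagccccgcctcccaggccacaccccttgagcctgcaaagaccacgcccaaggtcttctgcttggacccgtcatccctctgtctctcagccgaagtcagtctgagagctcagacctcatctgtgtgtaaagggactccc
Etfdh (chr3:79628718-79629017, - strand): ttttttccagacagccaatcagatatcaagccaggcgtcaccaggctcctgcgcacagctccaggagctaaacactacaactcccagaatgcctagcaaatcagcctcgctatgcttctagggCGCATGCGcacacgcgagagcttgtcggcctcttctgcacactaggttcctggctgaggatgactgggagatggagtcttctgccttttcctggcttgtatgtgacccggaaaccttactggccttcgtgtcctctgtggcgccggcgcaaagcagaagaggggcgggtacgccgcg

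The first question was how these genes differed after 24 h of IL-4 in each genotype. In the knockout 34 of 39 members had positive differences and 14 were past 1.5-fold higher, against 13.8% of all 11577 genes kept. In WT 36 of 39 were positive and 11 were past 1.5-fold higher, against 13.3% of 11689 genes. Past 1.5-fold lower were 2 members in each genotype, where the share of all genes was 13.4% in both. The median log2 difference of the members was 0.40 in the knockout, where that of all genes was 0.03, and 0.38 in WT, where that of all genes was 0.02. Past 2-fold higher were 3 members in each genotype (Idh3a, Mdh2 and Aco1), against 5.16% of all genes in the knockout and 4.77% in WT, and no member was past 2-fold lower (5.99% of all genes in the knockout and 6.26% in WT). The knockout and WT responses share no library. Both were positive for 34 members, or 87.2%, against 44.6% of all 11264 genes kept in both, and 11 members were past 1.5-fold higher in both (28.2% against 10.1%).

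**Figure D1:**
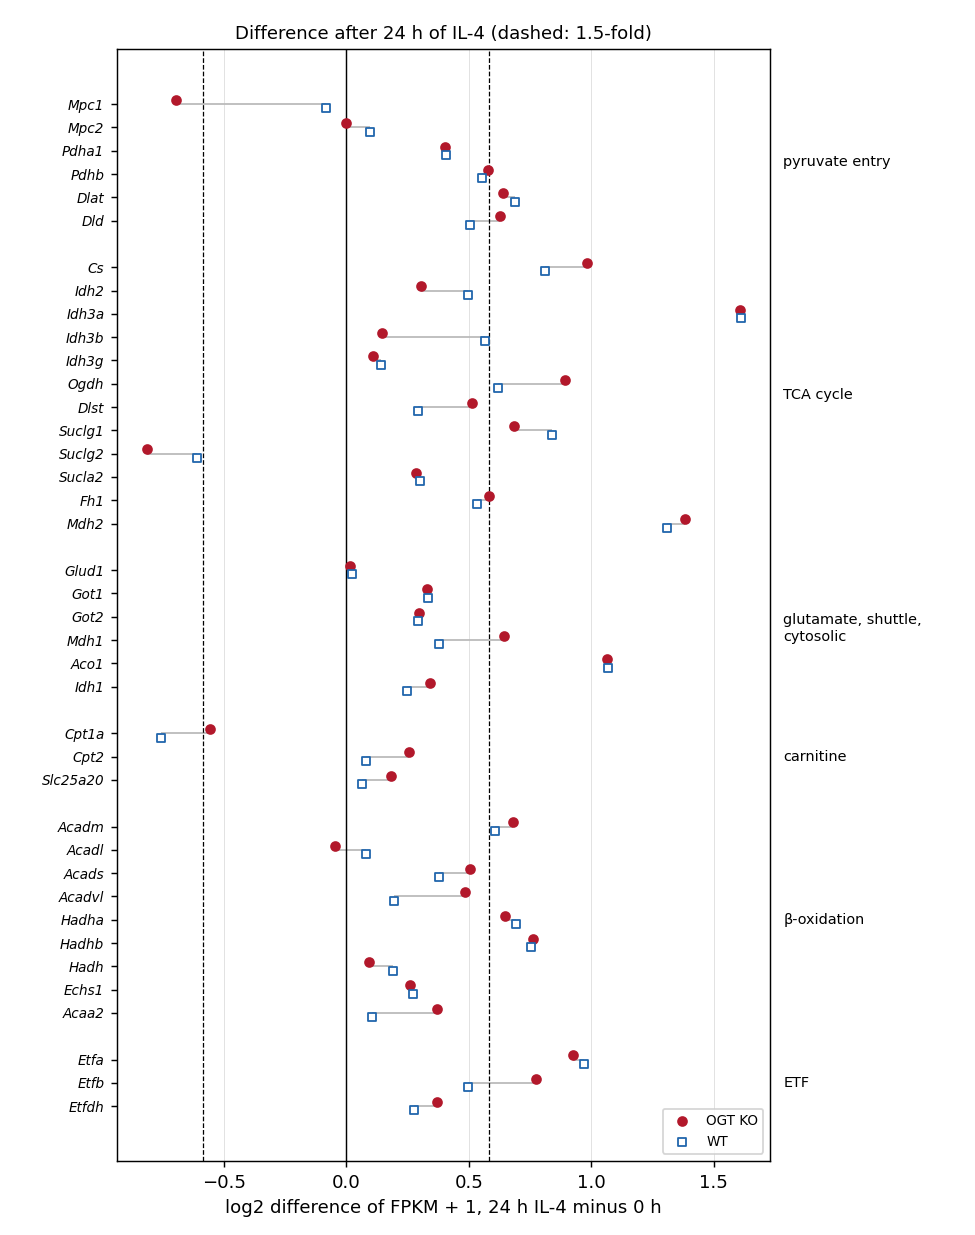
Difference of each gene after 24 h of IL-4, as log2 of FPKM + 1 at 24 h minus that at 0 h, in knockout (filled red circles) and WT (open blue squares) macrophages, 1 library per group. Idh3a lies farthest right in both genotypes at 1.61, and Suclg2, Cpt1a and Mpc1 lie left of 0 in both.

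Within the cycle, the step from citrate to 2-oxoglutarate held the largest difference. Idh3a encodes the catalytic subunit of the NAD-dependent isocitrate dehydrogenase (chromosome 9, 54586334 to 54604661, + strand). It stood at 13.4 FPKM at 24 h and 3.72 FPKM at 0 h in the knockout, and at 14.5 FPKM at 24 h and 4.08 FPKM at 0 h in WT. The log2 difference was 1.61 in both genotypes, which 1.82% of kept genes exceeded in the knockout and 1.53% in WT. The genes of its partner subunits were within 1.5-fold. Idh3g was at 24.0 FPKM at 24 h and 22.2 FPKM at 0 h in the knockout and at 22.6 FPKM at 24 h and 20.4 FPKM at 0 h in WT. Idh3b was at 35.3 FPKM at 24 h and 31.8 FPKM at 0 h in the knockout and at 35.8 FPKM at 24 h and 23.8 FPKM at 0 h in WT, just short of 1.5-fold in WT (0.57). The level of Idh3g was 1.80 times that of Idh3a at 24 h and 5.97 times at 0 h in the knockout, and 1.56 times at 24 h and 5.001 times at 0 h in WT. The catalytic subunit was thus the scarcest transcript of the 3 in all 4 libraries, and least so after IL-4.

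The other isocitrate dehydrogenases use NADP. Idh1, the cytosolic enzyme, was the highest of the 39 members, at 147 FPKM at 24 h and 115.9 FPKM at 0 h in the knockout and at 135 FPKM at 24 h and 113 FPKM at 0 h in WT. Its differences stayed small (log2 0.34 in the knockout and 0.25 in WT). Idh2, its mitochondrial counterpart, was at 23.0 FPKM at 24 h and 18.4 FPKM at 0 h in the knockout and at 28.1 FPKM at 24 h and 19.6 FPKM at 0 h in WT (log2 0.31 in the knockout and 0.50 in WT). Aco1, the cytosolic aconitase that also acts as the iron regulatory protein IRP1, was at 38.98 FPKM at 24 h and 18.1 FPKM at 0 h in the knockout, and at 36.7 FPKM at 24 h and 17.0 FPKM at 0 h in WT (1.07 in both).

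Mdh2 and Cs were past 1.5-fold higher in both genotypes. Mdh2, the mitochondrial malate dehydrogenase (chromosome 5, 135778480 to 135790398, + strand), was at 61.1 FPKM at 24 h and 22.8 FPKM at 0 h in the knockout, and at 62.2 FPKM at 24 h and 24.5 FPKM at 0 h in WT. Its log2 differences were 1.38 in the knockout and 1.31 in WT. Cs, the citrate synthase gene, was at 35.2 FPKM at 24 h and 17.3 FPKM at 0 h in the knockout and at 41.1 FPKM at 24 h and 23.0 FPKM at 0 h in WT (log2 0.98 in the knockout and 0.81 in WT). Both 24 h libraries lay above both 0 h libraries for either gene. The share of all genes in that order was not counted, here or below. For a gene past 1.5-fold in both genotypes and within it between them, that order follows from those values and adds nothing to them. Mdh1, the cytosolic malate dehydrogenase of the malate-aspartate shuttle, was at 50.4 FPKM at 24 h and 31.9 FPKM at 0 h in the knockout and at 64.6 FPKM at 24 h and 49.4 FPKM at 0 h in WT (log2 0.64 in the knockout and 0.38 in WT). The ratio of Mdh1 to Mdh2 was 0.825 at 24 h and 1.40 at 0 h in the knockout, and 1.04 at 24 h and 2.02 at 0 h in WT. Fh1, the fumarase gene, had 16.6 FPKM at 24 h and 10.8 FPKM at 0 h in the knockout and 17.0 FPKM at 24 h and 11.4 FPKM at 0 h in WT (log2 0.58 in the knockout and 0.53 in WT), both just under 1.5-fold.

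Subunits of succinyl-CoA synthetase went different ways. This enzyme pairs a shared α subunit, encoded by Suclg1, with a β subunit that uses either ATP (Sucla2) or GTP (Suclg2). Suclg1 was at 13.6 FPKM at 24 h and 8.10 FPKM at 0 h in the knockout, and at 15.7 FPKM at 24 h and 8.31 FPKM at 0 h in WT (log2 0.69 in the knockout and 0.84 in WT). Sucla2 was at 11.9 FPKM at 24 h and 9.58 FPKM at 0 h in the knockout and at 11.9 FPKM at 24 h and 9.49 FPKM at 0 h in WT (log2 0.29 in the knockout and 0.30 in WT). Suclg2 was lower after IL-4, at 2.17 FPKM at 24 h and 4.57 FPKM at 0 h in the knockout, and at 2.76 FPKM at 24 h and 4.73 FPKM at 0 h in WT (log2 -0.81 in the knockout and -0.61 in WT). It was the only member past 1.5-fold lower in both genotypes, and was within it with a pseudocount of 5 (log2 -0.42 in the knockout and -0.33 in WT). Of the β subunit transcripts, Suclg2 made up 15.4% at 24 h and 32.3% at 0 h in the knockout, and 18.8% at 24 h and 33.3% at 0 h in WT. A processed pseudogene, Gm15163, shares 16.0% of the 50-base words of Suclg2 transcripts and was at 0.330 FPKM at 24 h and 1.00 FPKM at 0 h in the knockout and 0.807 FPKM at 24 h and 1.44 FPKM at 0 h in WT.

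**Figure D2:**
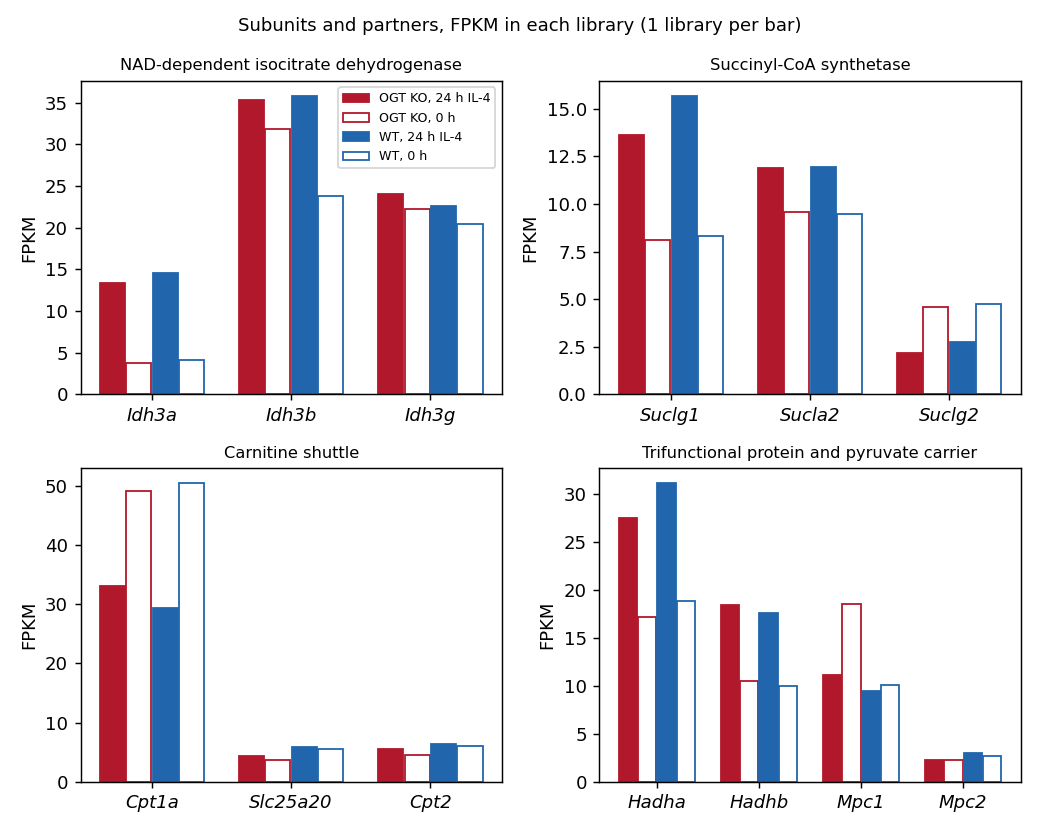
FPKM of subunits and partner genes in each library, with bars for knockout 24 h, knockout 0 h, WT 24 h and WT 0 h from left to right. Idh3a, Suclg1, Hadha and Hadhb are higher at 24 h, Suclg2 and Cpt1a are lower, and Mpc1 is highest, at 18.5 FPKM, in the knockout at 0 h.

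The 2-oxoglutarate and pyruvate dehydrogenase complexes share the Dld subunit. Ogdh, the first enzyme of the 2-oxoglutarate complex, was at 40.7 FPKM at 24 h and 21.4 FPKM at 0 h in the knockout and at 35.4 FPKM at 24 h and 22.7 FPKM at 0 h in WT (log2 0.89 in the knockout and 0.62 in WT). Its WT value was within 1.5-fold with a pseudocount of 5 (0.54), after median-ratio scaling (0.56) and as TPM, that is, scaled to the same total in each library (0.57). Dlst, its core acyltransferase, was at 6.74 FPKM at 24 h and 4.43 FPKM at 0 h in the knockout and at 5.99 FPKM at 24 h and 4.71 FPKM at 0 h in WT (log2 0.51 in the knockout and 0.29 in WT). In the pyruvate dehydrogenase complex, the acyltransferase gene Dlat was at 8.47 FPKM at 24 h and 5.08 FPKM at 0 h in the knockout and at 9.45 FPKM at 24 h and 5.48 FPKM at 0 h in WT (log2 0.64 in the knockout and 0.69 in WT). Both 24 h libraries were above both 0 h libraries for Ogdh, Dlst and Dlat, an order not counted over all genes. Dld was at 23.8 FPKM at 24 h and 15.03 FPKM at 0 h in the knockout and at 28.5 FPKM at 24 h and 19.8 FPKM at 0 h in WT (log2 0.63 in the knockout and 0.50 in WT). The E1 subunit genes Pdha1 (log2 0.40 in the knockout and 0.41 in WT) and Pdhb (log2 0.58 in the knockout and 0.56 in WT) were positive without passing 1.5-fold. Mpc1 and Mpc2 encode the paired subunits of the mitochondrial pyruvate carrier, and Mpc2 was the lowest member on average, between 2.28 and 2.99 FPKM in the 4 libraries. Neither carrier gene was past 1.5-fold higher after IL-4. Mpc1 was past 1.5-fold lower in the knockout, at 11.1 FPKM at 24 h and 18.5 FPKM at 0 h (-0.69). It was within 1.5-fold in WT, at 9.48 FPKM at 24 h and 10.1 FPKM at 0 h (-0.08).

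Genes for glutamate entry differed little. Glud1, the glutamate dehydrogenase gene and the second highest member on average, was at 73.3 FPKM at 24 h and 72.5 FPKM at 0 h in the knockout and at 67.2 FPKM at 24 h and 66.1 FPKM at 0 h in WT (0.02 in both). The aspartate aminotransferase genes Got1 (0.33 in both) and Got2 (0.30 in both) had small positive differences. Of 13 glutamine and glutamate genes outside the 39 members, 11 were kept. Past 1.5-fold higher were 3 in the knockout, beside 13.8% of all genes, and 4 in WT, beside 13.3%, and 1 was lower in each, beside 13.4%. Slc1a5, a glutamine transporter gene, was at 20.2 FPKM at 24 h and 3.52 FPKM at 0 h in the knockout and at 19.02 FPKM at 24 h and 4.66 FPKM at 0 h in WT (log2 2.23 in the knockout and 1.82 in WT). Slc25a13, which encodes the aspartate-glutamate carrier of the shuttle, was at 20.0 FPKM at 24 h and 3.51 FPKM at 0 h in the knockout and at 18.98 FPKM at 24 h and 3.01 FPKM at 0 h in WT (log2 2.22 in the knockout and 2.32 in WT). Glul, which makes glutamine from glutamate, was lower, at 47.8 FPKM at 24 h and 172.6 FPKM at 0 h in the knockout and at 44.9 FPKM at 24 h and 176.6 FPKM at 0 h in WT (log2 -1.83 in the knockout and -1.95 in WT). For these 3 genes the 24 h and 0 h libraries did not overlap, and the share of all genes without overlap was not counted. Gpt2, an alanine aminotransferase gene outside the naming rule and chosen after its values were seen, was also past 1.5-fold higher (log2 1.07 in the knockout and 1.22 in WT). Slc38a1, another glutamine transporter gene, was at 9.93 FPKM at 24 h and 7.81 FPKM at 0 h in the knockout (0.31) and at 12.5 FPKM at 24 h and 5.30 FPKM at 0 h in WT (1.10).

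Of the 15 fatty acid oxidation genes, 5 were past 1.5-fold higher in the knockout and 4 in WT, beside 13.8% of all genes in the knockout and 13.3% in WT, and none of them was among the 3 genes of the carnitine shuttle. Cpt1a, the outer membrane enzyme that commits fatty acyl groups to carnitine (chromosome 19, 3322334 to 3385733, + strand), was lower after IL-4. It was at 33.1 FPKM at 24 h and 49.1 FPKM at 0 h in the knockout (-0.56), and at 29.4 FPKM at 24 h and 50.4 FPKM at 0 h in WT (-0.76), past 1.5-fold in WT. In the knockout it was past 1.5-fold only after median-ratio scaling or as TPM (-0.62 in either), and whether the genotypes differ was not tested. Slc25a20, the carnitine-acylcarnitine carrier gene (log2 0.18 in the knockout and 0.06 in WT), and Cpt2, the inner membrane enzyme (log2 0.26 in the knockout and 0.08 in WT), were within 1.5-fold. The ratio of Cpt1a to Cpt2 was 5.98 at 24 h and 10.997 at 0 h in the knockout, and 4.58 at 24 h and 8.36 at 0 h in WT.

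In the β-oxidation spiral, 3 of 9 genes were past 1.5-fold higher in each genotype, and these were Acadm, Hadha and Hadhb, beside 13.8% of all genes in the knockout and 13.3% in WT. Acadm, the medium-chain acyl-CoA dehydrogenase gene, was at 20.3 FPKM at 24 h and 12.3 FPKM at 0 h in the knockout and at 19.2 FPKM at 24 h and 12.3 FPKM at 0 h in WT (log2 0.68 in the knockout and 0.61 in WT). Its WT value was within 1.5-fold with a pseudocount of 5 (0.49), after median-ratio scaling (0.55) and as TPM (0.58). Hadha, whose promoter window is printed above beside that of Hadhb, was at 27.5 FPKM at 24 h and 17.2 FPKM at 0 h in the knockout and at 31.1 FPKM at 24 h and 18.9 FPKM at 0 h in WT (log2 0.65 in the knockout and 0.69 in WT). Hadhb was at 18.5 FPKM at 24 h and 10.5 FPKM at 0 h in the knockout and at 17.6 FPKM at 24 h and 10.0 FPKM at 0 h in WT (0.76 in both). For all 3 genes both 24 h libraries were above both 0 h libraries, an order not counted over all genes. The level of Hadha was 1.49 to 1.89 times that of Hadhb over the 4 libraries. A processed pseudogene of Hadhb, Gm13910, was at 16.0 FPKM at 24 h and 9.91 FPKM at 0 h in the knockout and at 15.3 FPKM at 24 h and 8.45 FPKM at 0 h in WT, and shares sequence with it, so reads of Hadhb may be split.

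The remaining spiral genes were within 1.5-fold in both genotypes. The short-chain dehydrogenase Acads (log2 0.51 in the knockout and 0.38 in WT), the very-long-chain dehydrogenase Acadvl (log2 0.49 in the knockout and 0.20 in WT) and the thiolase Acaa2 (log2 0.37 in the knockout and 0.11 in WT) had larger values in the knockout. The enoyl-CoA hydratase Echs1 (log2 0.26 in the knockout and 0.27 in WT) and the hydroxyacyl-CoA dehydrogenase Hadh (log2 0.09 in the knockout and 0.19 in WT) had small ones. Acadl, the long-chain dehydrogenase gene, was near 0 in both (log2 -0.05 in the knockout and 0.08 in WT), at 36.9 to 40.1 FPKM across libraries. Electrons from the acyl-CoA dehydrogenases pass to the electron transfer flavoprotein. Its α subunit gene Etfa was at 42.8 FPKM at 24 h and 22.0 FPKM at 0 h in the knockout and at 50.8 FPKM at 24 h and 25.4 FPKM at 0 h in WT (log2 0.93 in the knockout and 0.97 in WT). The β subunit gene Etfb was at 39.4 FPKM at 24 h and 22.6 FPKM at 0 h in the knockout and at 47.4 FPKM at 24 h and 33.3 FPKM at 0 h in WT (log2 0.78 in the knockout and 0.50 in WT). The reductase gene Etfdh was at 6.48 FPKM at 24 h and 4.79 FPKM at 0 h in the knockout and at 6.52 FPKM at 24 h and 5.21 FPKM at 0 h in WT (log2 0.37 in the knockout and 0.28 in WT). The 24 h and 0 h libraries did not overlap for any of these 3 flavoprotein genes, and the share of all genes without overlap was not counted.

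**Figure D3:**
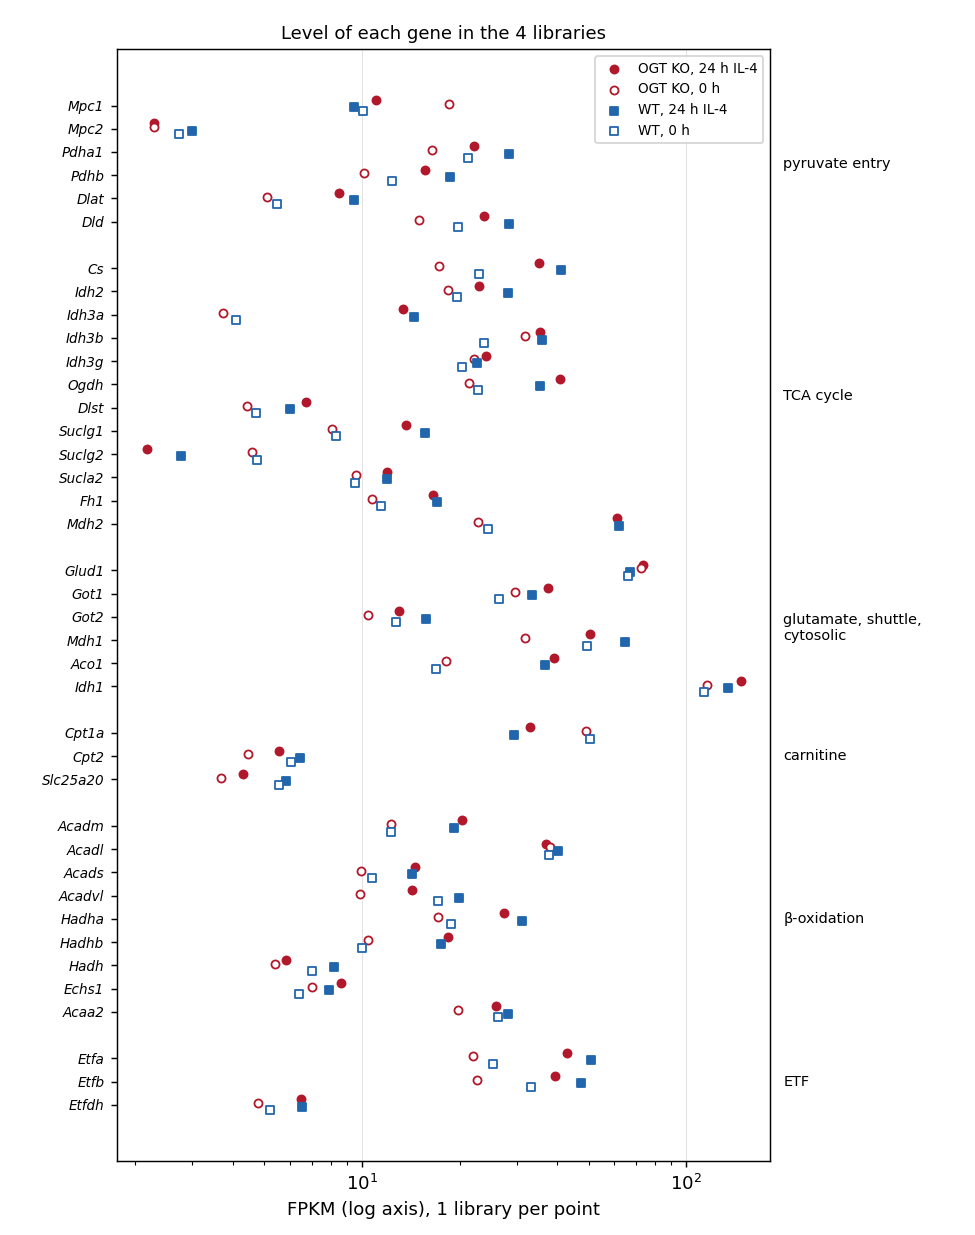
FPKM of each of the 39 genes on a log axis, grouped by role, with knockout as red circles, WT as blue squares, filled symbols for 24 h of IL-4 and open symbols for 0 h, 1 library per point. Levels run from about 2 FPKM for Suclg2 and Mpc2 to over 100 FPKM for Idh1, and filled symbols lie right of open ones for most genes.

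Of 71 other genes listed for these pathways, 57 were kept in each IL-4 comparison, with 12 past 1.5-fold higher in each genotype, beside 13.8% of all genes in the knockout and 13.3% in WT. Past it lower were 4 in the knockout and 6 in WT, beside 13.4% of all genes in either. The succinate dehydrogenase genes Sdha (log2 0.59 in the knockout and 0.79 in WT), Sdhc (log2 0.76 in the knockout and 0.78 in WT) and Sdhd (log2 0.67 in the knockout and 0.77 in WT) were past 1.5-fold higher in both, and Sdhb was within it (log2 0.45 in the knockout and 0.58 in WT). Crat, a carnitine acetyltransferase gene, was at 27.5 FPKM at 24 h and 12.4 FPKM at 0 h in the knockout and at 22.9 FPKM at 24 h and 12.1 FPKM at 0 h in WT (log2 1.08 in the knockout and 0.87 in WT). Decr1, which helps oxidise unsaturated fatty acids, had differences of 0.62 in the knockout and 0.56 in WT, and Pdk1, a kinase that inhibits pyruvate dehydrogenase, of 0.71 in the knockout and 0.59 in WT. Lower in both were the dicarboxylate carrier Slc25a10 (log2 -1.46 in the knockout and -1.52 in WT) and the mitochondrial PEP carboxykinase Pck2 (log2 -1.35 in the knockout and -1.05 in WT). Pdk2, a second inhibitory kinase of pyruvate dehydrogenase, was lower in both (log2 -0.61 in the knockout and -0.64 in WT). Acod1, which makes itaconate, was near the filter, at 0.098 FPKM at 24 h and 1.22 FPKM at 0 h in WT (-1.01). In the knockout it was at 0.406 FPKM at 24 h and 0.997 FPKM at 0 h, lower at 24 h too but just short of being kept. Pdk2 and Acod1 were named after their values were seen.

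Among 8 regulator genes, the coactivator Ppargc1b, known in mouse macrophages to promote oxidative genes under IL-4, was at 7.81 FPKM at 24 h and 0.464 FPKM at 0 h in the knockout, and at 6.05 FPKM at 24 h and 0.432 FPKM at 0 h in WT (log2 2.59 in the knockout and 2.30 in WT). Pparg, a lipid-sensing nuclear receptor, was at 57.1 FPKM at 24 h and 18.7 FPKM at 0 h in the knockout and at 70.3 FPKM at 24 h and 20.4 FPKM at 0 h in WT (log2 1.56 in the knockout and 1.73 in WT). Ppard was past 1.5-fold lower in WT and within it in the knockout, at 3.75 FPKM at 24 h and 5.34 FPKM at 0 h in the knockout (-0.42) and at 2.68 FPKM at 24 h and 6.51 FPKM at 0 h in WT (-1.03). Ppara and Ppargc1a, which lead this programme in liver and muscle, did not reach 1 FPKM in any library.

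Other features of the libraries moved with IL-4. The 8 macrophage markers summed to 2297 FPKM at 24 h and 3682 FPKM at 0 h in the knockout and to 2166.2 FPKM at 24 h and 3576 FPKM at 0 h in WT. Adgre1 was at 378 FPKM at 24 h and 1027 FPKM at 0 h in the knockout and at 361 FPKM at 24 h and 1150 FPKM at 0 h in WT. Cd14 was at 25.9 FPKM at 24 h and 224 FPKM at 0 h in the knockout and at 14.99 FPKM at 24 h and 198 FPKM at 0 h in WT, while Cd68 was between 965 and 1009 FPKM in all 4 libraries. The 13 mitochondrially encoded protein genes summed to 30493 FPKM at 24 h and 23574 FPKM at 0 h in the knockout, and to 30586 FPKM at 24 h and 19873 FPKM at 0 h in WT. The 6 proliferation markers summed to 271 FPKM at 24 h and 87.5 FPKM at 0 h in the knockout and to 256 FPKM at 24 h and 98.7 FPKM at 0 h in WT, with all 6 higher at 24 h in both genotypes. Most of each sum was Pcna, at 238 FPKM at 24 h and 70.1 FPKM at 0 h in the knockout and at 214 FPKM at 24 h and 74.0 FPKM at 0 h in WT, while Mki67 was at 7.34 FPKM at 24 h and 5.59 FPKM at 0 h in the knockout and at 10.02 FPKM at 24 h and 8.83 FPKM at 0 h in WT. The 9 neutrophil markers summed to 679 FPKM at 24 h and 2120 FPKM at 0 h in the knockout and to 1042 FPKM at 24 h and 3321 FPKM at 0 h in WT, led by S100a9 and S100a8, with Ly6g under 1 FPKM in all libraries. Of the 6 fibroblast markers 3 reached 1 FPKM in any library, and of the 5 B cell markers 1, with sums of at most 12.7 FPKM for the fibroblast list and 13.9 FPKM for the B cell list. The 4 megakaryocyte markers summed to 28.7 FPKM at 24 h and 47.4 FPKM at 0 h in the knockout and to 48.8 FPKM at 24 h and 100.3 FPKM at 0 h in WT. Their part in the member differences was not tested. In bulk RNA, fewer cells of a type and less RNA per cell cannot be told apart.

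The second question was how the knockout differed from WT at each time. Few members differed. At 0 h 1 member was past 1.5-fold higher in the knockout (Mpc1), against 2.78% of all 11480 genes, and 2 were lower (Mdh1 and Acadvl), against 3.34%. At 24 h no member was past 1.5-fold in either direction, against 2.91% of 11302 genes higher and 2.48% lower. No member passed 2-fold at either time, where 0.88% of genes were higher and 0.871% lower at 0 h, and 0.832% higher and 0.628% lower at 24 h. The member median was -0.09 at 0 h, where that of all genes was -0.05, and -0.12 at 24 h, where that of all genes was -0.05.

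The comparisons at 0 h and 24 h share no library. In both, 23 of 39 members were lower in the knockout (59.0%, against 43.7% of 10780 genes kept in both), and 9 were higher (23.1% against 25.1%). After scaling by median ratios 18 members were lower at both times, where 34.2% of all genes were, and 12 were higher. The largest negative values at 0 h were those of Acadvl, Mdh1 and Etfb. Acadvl, which starts the oxidation of very-long-chain acyl-CoA, was at 9.87 FPKM in the knockout and 17.2 FPKM in WT at 0 h (-0.74), and at 14.2 FPKM in the knockout and 19.9 FPKM in WT at 24 h (-0.46). Exons of Dvl2 on the other strand overlap 42.9% of its exon bases. Dvl2 was at 2.67 FPKM in the knockout and 2.91 FPKM in WT at 0 h, and at 3.54 FPKM in the knockout and 3.76 FPKM in WT at 24 h.

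Mdh1 was at 31.9 FPKM in the knockout and 49.4 FPKM in WT at 0 h (-0.62), and at 50.4 FPKM in the knockout and 64.6 FPKM in WT at 24 h (-0.35). Scaling by median ratios put its 0 h value at -0.56, within 1.5-fold, and with a pseudocount of 5 both Mdh1 and Acadvl were within 1.5-fold. Etfb was at 22.6 FPKM in the knockout and 33.3 FPKM in WT at 0 h (-0.54), and at 39.4 FPKM in the knockout and 47.4 FPKM in WT at 24 h (-0.26). Another gene, Gm45233, covers much of Etfb, 58.2% of its exon bases together with a microRNA, and was listed at 0.164 FPKM or less. The knockout library was thus lower than its WT partner at both times for these genes, and neither passed 1.5-fold at 24 h. Slc25a20 (-0.49 at 0 h and -0.37 at 24 h), Hadh (-0.33 at 0 h and -0.42 at 24 h), Cpt2 (-0.36 at 0 h and -0.19 at 24 h), Cs (-0.39 at 0 h and -0.22 at 24 h), Pdha1 (-0.34 at 0 h and -0.35 at 24 h) and Dld (-0.38 at 0 h and -0.25 at 24 h) were negative at both times, within 1.5-fold. The genes with the largest IL-4 differences were close between genotypes, with Idh3a at -0.10 at 0 h and -0.11 at 24 h, Mdh2 at -0.10 at 0 h and -0.02 at 24 h, and Aco1 at 0.09 at both times.

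**Figure D4:**
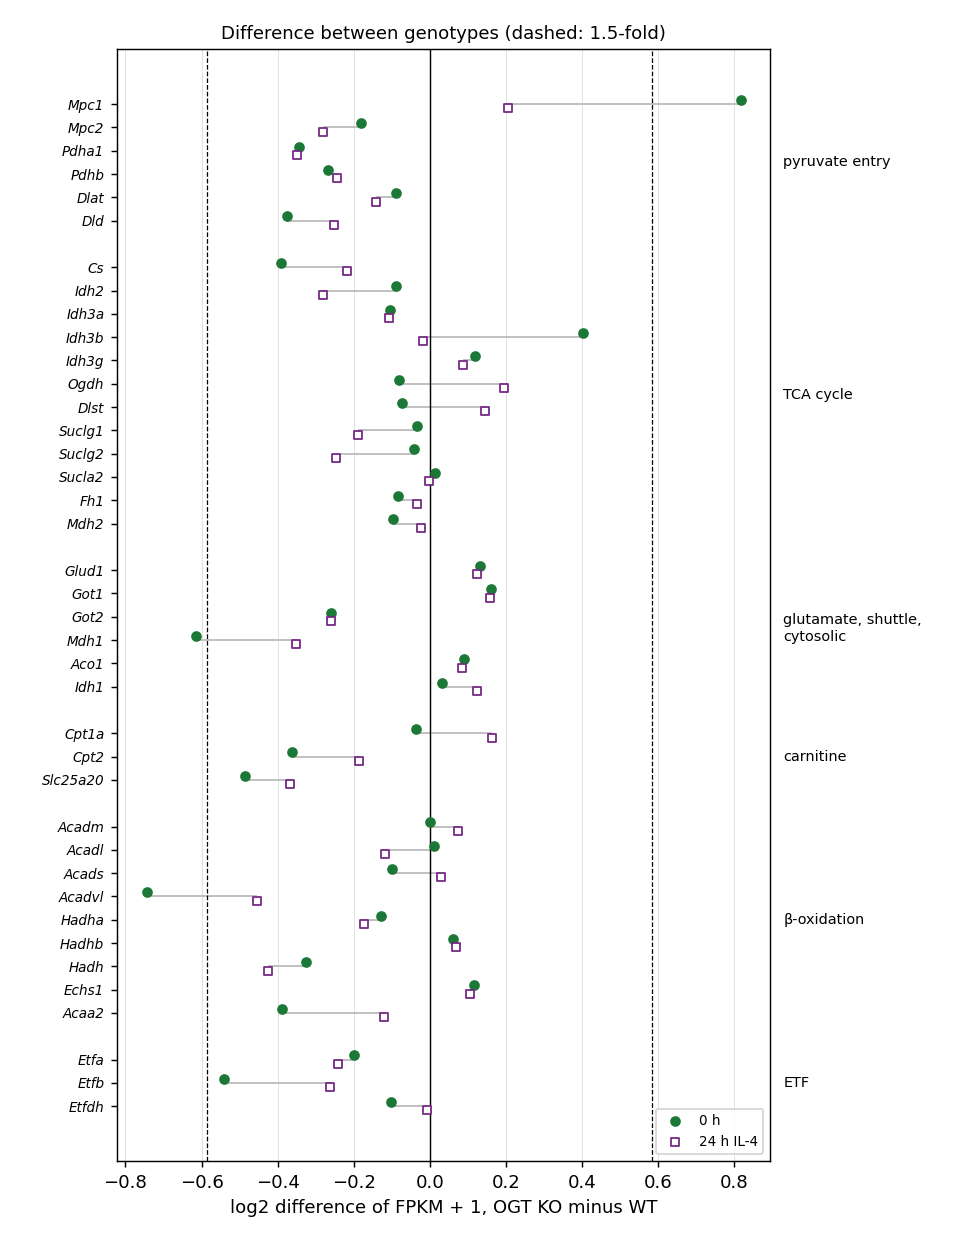
Difference of each gene between genotypes, as log2 of FPKM + 1 in the knockout minus WT, at 0 h (filled green circles) and after 24 h of IL-4 (open purple squares), 1 library per group. Acadvl, Mdh1, Etfb and Slc25a20 lie left of 0 at both times, and Mpc1 lies at 0.82 at 0 h and 0.20 at 24 h.

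Mpc1 was the exception in the other direction. It was at 18.5 FPKM in the knockout and 10.1 FPKM in WT at 0 h (0.82), and at 11.1 FPKM in the knockout and 9.48 FPKM in WT at 24 h (0.20), so the knockout library at 0 h stood apart from the other 3. Its processed pseudogene Mpc1-ps was listed at higher levels and in the same order, at 40.5 FPKM in the knockout and 22.1 FPKM in WT at 0 h, and at 24.3 FPKM in the knockout and 17.8 FPKM in WT at 24 h. Other genes share 26.3% of the 50-base words of Mpc1 transcripts, so reads may be split and the value of Mpc1 is less certain. Mpc2, its partner, was at 2.29 FPKM in the knockout and 2.73 FPKM in WT at 0 h (-0.18), and at 2.28 FPKM in the knockout and 2.99 FPKM in WT at 24 h (-0.28). Idh3b came next among positive values at 0 h (0.40 at 0 h and -0.02 at 24 h), within 1.5-fold.

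Of the 71 other pathway genes, 57 were kept in each genotype comparison, with 1 past 1.5-fold lower in the knockout at 0 h and 1 at 24 h, and none higher. Of all genes, 3.34% were lower and 2.78% higher at 0 h, and 2.48% lower and 2.91% higher at 24 h. At 0 h this was Acsl4, an acyl-CoA synthetase gene that favours polyunsaturated fatty acids, at 10.7 FPKM in the knockout and 18.7 FPKM in WT (-0.76). At 24 h it was Slc25a12, a second aspartate-glutamate carrier gene, which lay outside the naming rule and was chosen after its values were seen. It was at 2.63 FPKM in the knockout and 4.59 FPKM in WT at 24 h (-0.62), and at 3.05 FPKM in the knockout and 4.67 FPKM in WT at 0 h (-0.49). Ppargc1b at 24 h was within 1.5-fold (0.32). Beside these values, the neutrophil markers summed to 2120 FPKM in the knockout and 3321 FPKM in WT at 0 h, and to 679 FPKM in the knockout and 1042 FPKM in WT at 24 h. The mitochondrially encoded genes summed to 23574 FPKM in the knockout and 19873 FPKM in WT at 0 h, and to 30493 FPKM in the knockout and 30586 FPKM in WT at 24 h. Their part in the genotype differences was not tested.

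The third question was whether the IL-4 response differed between genotypes, taken as the knockout response minus the WT response. The member median of this value was 0.00, the same as that of all genes to 2 decimals, with 20 members positive and 19 negative. Past 1.5-fold in the positive direction were 0 of 39 members, beside 3.82% of all 12002 genes, and in the negative one 1, beside 3.12%. No member was past 2-fold, beside 1.27% of all genes in the positive direction and 1.17% in the negative one. The 1 member past 1.5-fold was Mpc1 (-0.61), with its high value in the knockout at 0 h. Next were Idh3b (-0.42), Acadvl (0.29), Etfb (0.28) and Ogdh (0.28). Idh3a, Aco1, Got2 and Glud1 differed by 0.01 or less. Of the 71 other pathway genes, 58 were kept for this value. Past 1.5-fold in the positive direction were 2, Acsl4 (0.79) and Ppard (0.61), beside 3.82% of all genes. In the negative direction 1 was past it, Slc38a1 (-0.79), beside 3.12%.

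**Figure D5:**
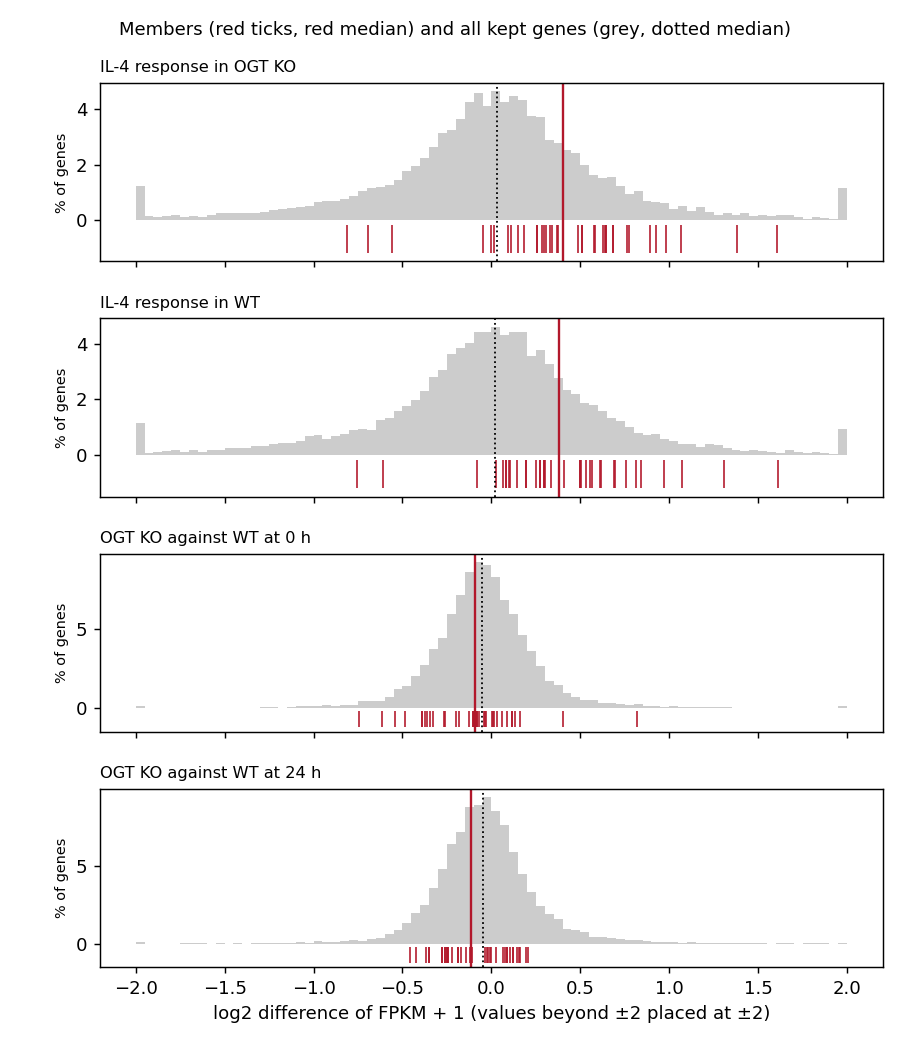
Distribution of log2 differences of FPKM + 1 over all kept genes (grey, percent of genes per bin, dotted line at their median) with the 39 members as red ticks and their median as a red line, in each of the 4 comparisons, 1 library per group. The member median lies right of that of all genes in the IL-4 comparisons, at 0.40 in the knockout and 0.38 in WT, and close to it between genotypes.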

How the data were processed

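RNA-seq libraries of 4 groups, 1 each, were analysed. Libraries used a SMARTer mRNA kit and 1 µg of RNA, per the labels' protocols. STAR and StringTie on GRCm38 are named in the submitters' processing notes, without versions, and the sources used here give neither settings nor annotation. The authors deposited 1 table whose values were read as FPKM, since they are not whole and their totals, from 338704 to 353093, differ between libraries.

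GENCODE M21 (GRCm38) gave positions, counted from 1, and symbols for 52403 of 52550 genes. Genes were kept at 1 FPKM in at least 1 library compared, with a pseudocount of 1. Depth was read from single-exon genes over 800 bases, where low values step in whole fragments, and covers counting only. Of the members, 10 have exons that overlap another gene, and strandedness is not given. Shared 50-base words were counted in GENCODE transcripts. Members, lists and motifs were chosen with earlier results of these data known. Members past 1.5-fold in any comparison are given in full, other pathway genes if past it and at 5 FPKM. The fold procedure was tested on simulated data (Python 3.11.15, pandas 2.3.3). Alternatives were pseudocounts of 0.1 and 5, other filters and other scalings.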

Additional observations from a re-analysis of the deposited data

Results flagged for a closer look

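Among the 39 members and the 17 other pathway genes that met the naming rule, some had IL-4 differences of opposite sign in the genotypes. There was 1 library in each group, and these contrasts were not tested. Pathway genes outside the rule were left out of this search, and some of them had opposite signs too. Slc25a22 had -0.35 in the knockout and 0.10 in WT, and Ivd had 0.02 in the knockout and -0.40 in WT. Mpc2, a subunit of the pyruvate carrier, had a log2 difference of -0.0020 in the knockout and 0.097 in WT, a gap of -0.099. Acadl, the long-chain acyl-CoA dehydrogenase gene, had -0.045 in the knockout and 0.081 in WT, a gap of -0.127. Both gaps are small beside the range of the members. Acsl4, an acyl-CoA synthetase gene, had 0.52 in the knockout and -0.28 in WT, a gap of 0.79, and its lowest library was the knockout at 0 h, at 10.7 FPKM.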

How the results depend on the processing

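The 13 summary values (5 medians and 8 counts) were computed again under 7 alternatives. All 35 alternative medians stayed within 0.1 of the reported one, and 49 of 56 alternative counts within 1.5 times. For medians that margin is about the size of the genotype medians themselves. Median-ratio scaling moved them from -0.09 to -0.04 at 0 h and from -0.12 to -0.06 at 24 h. The genotype medians of all genes then stood at -0.005 at 0 h and 0.001 at 24 h. With a pseudocount of 5, members past 1.5-fold higher after IL-4 in the knockout numbered 9, and those past it lower numbered 0 after IL-4 in the knockout, 1 after IL-4 in WT and 0 in the knockout against WT at 0 h. Acadvl and Mdh1 then came under 1.5-fold between genotypes. With a filter at 5 FPKM, which removes Suclg2, 1 member was lower after IL-4 in the knockout and 1 in WT. After scaling by median ratios, 1 member was lower in the knockout at 0 h, Acadvl (-0.69), and Mdh1 was at -0.56. With a pseudocount of 5, Dlat, Dld, Mpc1, Hadha, Suclg1, Suclg2 and Acadm came within 1.5-fold after IL-4 in the knockout, and Dlat, Ogdh, Suclg2 and Acadm in WT. After median-ratio scaling Mdh1 (0.58) and Dld (0.57) did so in the knockout, and Ogdh and Acadm in WT. No scaling moved the median of all genes by more than 0.071. Removing a library was not possible with 1 per group. Depth bears most on Suclg2, Cpt2, Mpc2 and Slc25a20, the members with fewest fragments, and no value can be set against variation between cultures.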
